A study of Mus musculus with 12 samples.

Results

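The genes described here are the protein subunits of oxidative phosphorylation, the 4 respiratory complexes and the ATP synthase of mitochondria. They were chosen by name from the protein-coding genes of the deposited table (symbols beginning Nduf with a to c, s or v and a digit, Sdha to Sdhd, Uqcr, Cox4 to Cox8 followed by a to c, Atp5, and the protein genes of mitochondrial DNA). This gave 95 of 50600 genes, of which 82 lie in the nucleus and 13 in mitochondrial DNA. Complex I has 44 of them (37 nuclear, 7 mitochondrial), complex II has 4, complex III has 9 (8 and 1), complex IV has 19 (16 and 3) and complex V has 19 (17 and 2). The name rule leaves out Cox4i1, Cyc1, Ndufab1 and Usmg5. Values of Cox4i1 and Cyc1 are given with the related lists. It takes in 3 genes whose products are known elsewhere than their name says: Ndufa4 is known as a complex IV subunit, Atp5sl as a complex I assembly factor and Cox7a2l as a factor that joins complexes III and IV. Ndufa4l2, a paralog of Ndufa4, and Atp5s, a coupling factor relative, also entered by name alone. All counts, sums and figures per complex follow the names. Ndufa4 and Ndufa4l2 are thus counted in complex I, Cox7a2l in complex IV, and Atp5sl and Atp5s in complex V.

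RNA was sequenced from 12 aortas, taken down to the diaphragm from the branch of the left subclavian artery. All came from C57BL/6J mice with 1 functional elastin gene (Eln+/-), labelled 3 months old. Off drug mice (n = 4) received minoxidil in their drinking water for 2 weeks, beginning at 2.5 months, followed by 1 week without it. On drug mice (n = 4) had the same 2 weeks of minoxidil, and control mice (n = 4) had none. Minoxidil, an opener of ATP-sensitive potassium channels, dilates arteries. Every group shares the elastin deficiency, so no comparison bears on the mutation itself. The labels give neither sex nor litter, and they say only that the samples of a group are separate, so p-values measure the spread between these samples.

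Oxidative phosphorylation passes electrons from NADH (complex I) and succinate (complex II) through complex III to oxygen at complex IV, and the proton gradient that results drives ATP synthesis at complex V. Its subunits come from 2 genomes: mitochondrial DNA encodes a few hydrophobic core subunits on long transcripts that are cut apart at the tRNA genes, while nuclear genes encode all the others, including the whole of complex II. Smooth muscle of the arterial wall draws much of its ATP from glycolysis, whereas brown fat, which surrounds the mouse aorta, is very rich in these complexes.

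The libraries held 41524501 to 109423243 assigned reads. Mitochondrial protein genes took 1.51 to 1.92% of them and the nuclear subunits 0.488 to 0.594%. Of the 95 genes, 93 passed the filter on low counts, and Cox7b2 and Cox8c, isoforms known from testis, had at most 3 reads in any library. Summed smooth muscle markers lay at 17519.9 to 20044 CPM off drug, 18208 to 20897 CPM on drug and 15972 to 18472 CPM in controls (CPM, normalised read counts scaled to a common library size), and 3 of 8 were called higher off drug and 2 of 8 on drug against control. Nerve markers lay at 6.24 to 13.5 CPM in all libraries. Macrophage markers summed to 580.4 to 679 CPM off drug, 714 to 888 CPM on drug and 694 to 879 CPM in controls. Their off drug and control ranges did not overlap, and 3 of 7 were called lower off drug against control. Brown adipocyte markers summed to 111 to 235 CPM in off drug, 238 to 273 CPM in on drug and 165 to 365 CPM in control aortas; 1 of 8 was called lower off drug against control. Skeletal muscle markers summed to 105 to 143 CPM off drug, 154 to 192 CPM on drug and 105 to 120 CPM in controls, so the on drug and control ranges did not overlap. On drug against control 3 of 13 were called higher, but signs were mixed, with 7 positive and 6 negative (median log2 fold change 0.47). Without the drug for 1 week, 2 of 13 were called higher than in controls and 1 lower, with a median log2 fold change of 0.74 and 12 of 13 positive. Endothelial markers summed to 626 to 814 CPM off drug, 869.6 to 1004 CPM on drug and 693 to 786 CPM in controls, and against control 2 of 7 were called lower off drug and 2 of 7 higher on drug. Red cell markers summed to 2038 to 4801 CPM off drug, 3878 to 6001 CPM on drug and 4925 to 20566 CPM in controls, and 7 of 7 were called lower off drug against control. Fibroblast markers summed to 2770 to 3074 CPM off drug, 2921 to 3189 CPM on drug and 2818 to 3471 CPM in controls. Against control 2 of 7 were called lower off drug and 1 of 7 higher on drug. Heart muscle markers summed to 85.2 to 114, 84.5 to 135 and 80.3 to 120 CPM in the same order. Of 9, 1 was called higher off drug and 1 on drug against control. White adipocyte markers summed to 90.5 to 446, 279 to 552 and 191 to 575 CPM, without a call. The part of any of these cells in the results below was not tested unless a value is given. In bulk tissue, fewer cells of a type and less RNA per cell cannot be told apart.

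Levels can be compared between genes only per length, here CPM per kilobase of counted exon. On that scale the mitochondrial genes led: mt-Co1 averaged 5402, mt-Co3 5367, mt-Co2 2493, mt-Atp6 1187, mt-Atp8 1098, mt-Nd3 1026 and mt-Nd1 643 over the 12 libraries. The lowest mitochondrial genes, mt-Nd4l and mt-Nd6, averaged 40.2 and 38.1 CPM per kilobase. mt-Co1 and mt-Co3, and mt-Atp6 and mt-Atp8, lay within the spread between libraries of each other. The genes mt-Atp6 and mt-Atp8 overlap, and reads over the shared bases were counted for both. Among the nuclear subunits the highest were Cox8a (218), Cox6a1 (162), Atp5a1 (135), Ndufb9 (129) and Cox7a2l (127). Counted length joins all annotated exons of a gene, which lowers the value of genes with long minor isoforms.

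After 1 week off the drug, 7 mitochondrial genes of complexes I, III and V were higher than in controls, while the 3 of complex IV were not called. A gene was called where edgeR's quasi-likelihood test gave a Benjamini-Hochberg adjusted p below 0.05 over 24660 genes. By this rule 8 of the 93 members were called higher (7 of 13 mitochondrial, 1 of 80 nuclear) and 5 lower, beside 12% of all genes tested (6.27% higher, 5.77% lower). With library sizes that carry no composition factor the split over all genes was 1870 higher and 844 lower, beside 1545 and 1422. CPM of the off drug and control groups did not overlap for 11 members, beside 16.9% of all genes. The median log2 fold change of the 13 was 0.38, beside -0.01 for all genes tested, and 11 of 13 were positive. That median lay between 0.27 and 0.48 in the 25 other settings tried (other scalings, filters, tools and covariates, and 12 fits without 1 library). The members called lower were all nuclear. Without control 2 or control 3, 4 members were called higher, and with the skeletal muscle marker score as a covariate only mt-Nd4l was (2.59% of all genes). That score was 0.311, 1.03, -0.199 and -0.134 in the off drug libraries and -0.601 to -0.175 in controls. Off drug replicate 3 alone lay in the control range, so this fit separates the score from the treatment only in part. Without any filter on low counts the calls of mt-Cytb, mt-Atp6, mt-Nd2, mt-Nd5 and mt-Atp8 were lost.

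mt-Nd1, a membrane subunit where complex I passes electrons to ubiquinone, had 636, 738, 681 and 809.7 CPM in off drug, 571, 659, 541 and 673 CPM in on drug and 589, 511, 448 and 529.9 CPM in control aortas. Every off drug value lay above every control value, and the on drug values lay between and across them. Off drug against control its log2 fold change came to 0.46 ± 0.09 (SE) with an adjusted p of 0.00333; on drug against control the values were 0.23 ± 0.09 and 0.137. mt-Nd4l, a small membrane subunit, had 14.7, 13.3, 13.2 and 16.1 CPM in off drug, 12.3, 13.6, 9.05 and 11.8 CPM in on drug and 9.12, 10.6, 8.82 and 10.6 CPM in control aortas. Here too off drug and control values did not overlap (0.55 ± 0.11, adjusted p = 0.0034). This call held in each of the 25 other settings. Without each library in turn, mt-Nd1 also kept its call in all 12 fits. The last 7 bases of mt-Nd4l (chrM:10167-10173) overlap mt-Nd4, and reads over them were counted for both genes. mt-Nd4, given below, was not called.

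mt-Nd5 and mt-Nd2, which form proton channels of the complex I arm, had log2 fold changes of 0.41 ± 0.11 (adjusted p = 0.025) and 0.61 ± 0.17 (adjusted p = 0.0384) off drug against control. mt-Nd2 had 111, 147, 123 and 191 CPM in off drug, 101, 127, 95.4 and 119.6 CPM in on drug and 103, 99.3, 76.6 and 95.5 CPM in control aortas. The off drug replicate 4 stood highest and control replicate 3 lowest. The mt-Nd2 call was lost without off drug 2, on drug 4 or any control library (adjusted p 0.0509 to 0.102), and the mt-Nd5 call was lost without control 3 (adjusted p = 0.0676). mt-Nd4, another channel subunit, was not called at 0.34 ± 0.11 (adjusted p = 0.0605). mt-Nd6 was not called either, at 0.38 ± 0.15 (adjusted p = 0.122). It is the single protein gene on the opposite strand, and counting without strand also gives it reads of transcripts that run across it the other way. mt-Nd3 had 268, 397, 308 and 488 CPM in off drug, 390.3, 395, 289 and 285 CPM in on drug and 304, 418, 395 and 348 CPM in control aortas. Its groups overlapped throughout (0.00 ± 0.20, adjusted p = 0.993).

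mt-Cytb, the cytochrome b of complex III and its single mitochondrial subunit, had 446, 518, 525 and 583 CPM in off drug, 411, 478, 406 and 494 CPM in on drug and 457, 357, 319.7 and 379.9 CPM in control aortas. Control replicate 1 reached into the off drug range, and the other controls lay below it. The difference was 0.45 ± 0.11 on the log2 scale (adjusted p = 0.0111), called also without each library in turn.

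The complex IV core is made of mt-Co1, which holds the oxygen-reducing site, mt-Co2, which takes electrons from cytochrome c, and mt-Co3. mt-Co1 had 8173, 8629, 9262 and 8660.0 CPM in off drug, 8222, 8009.5, 7301 and 8167 CPM in on drug and 8619, 7713, 8132 and 9264 CPM in control aortas. All 3 groups overlapped, and off drug against control the log2 fold change was 0.04 ± 0.07 (adjusted p = 0.75). On the same scale mt-Co2 gave 0.18 ± 0.08 (adjusted p = 0.131) and mt-Co3 gave -0.07 ± 0.08 (adjusted p = 0.619), without a call. These 3 have the highest levels per length of all members.

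mt-Atp8 and mt-Atp6, which encode membrane subunits of the ATP synthase, share 1 transcript. Their reading frames overlap by 43 bases at chrM:7927-7969 (GRCm38, forward strand), inside the coding exon of each gene. The stretch is shown because reads over it were counted for both genes. It is part of the 204 bases of mt-Atp8, so the values and calls of the 2 genes are not independent. Capitals mark the start codon of mt-Atp6.
mt-Atp8 and mt-Atp6 overlap: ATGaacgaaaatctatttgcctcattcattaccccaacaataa
mt-Atp6 had 767, 964, 886 and 1086 CPM in off drug, 737, 880.2, 693 and 820.2 CPM in on drug and 795, 694, 652 and 726 CPM in control aortas. The off drug values lay above the controls except for replicate 1 (0.37 ± 0.10, adjusted p = 0.0217). mt-Atp8 gave 0.43 ± 0.13 (adjusted p = 0.0417). The mt-Atp6 call was lost without off drug 2 or 4 or control 2 or 3 (adjusted p 0.0569 to 0.0775), and that of mt-Atp8 was lost without off drug 2, 3 or 4, on drug 1 or 4 or any control library (adjusted p 0.0521 to 0.121).

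**Figure D1:**
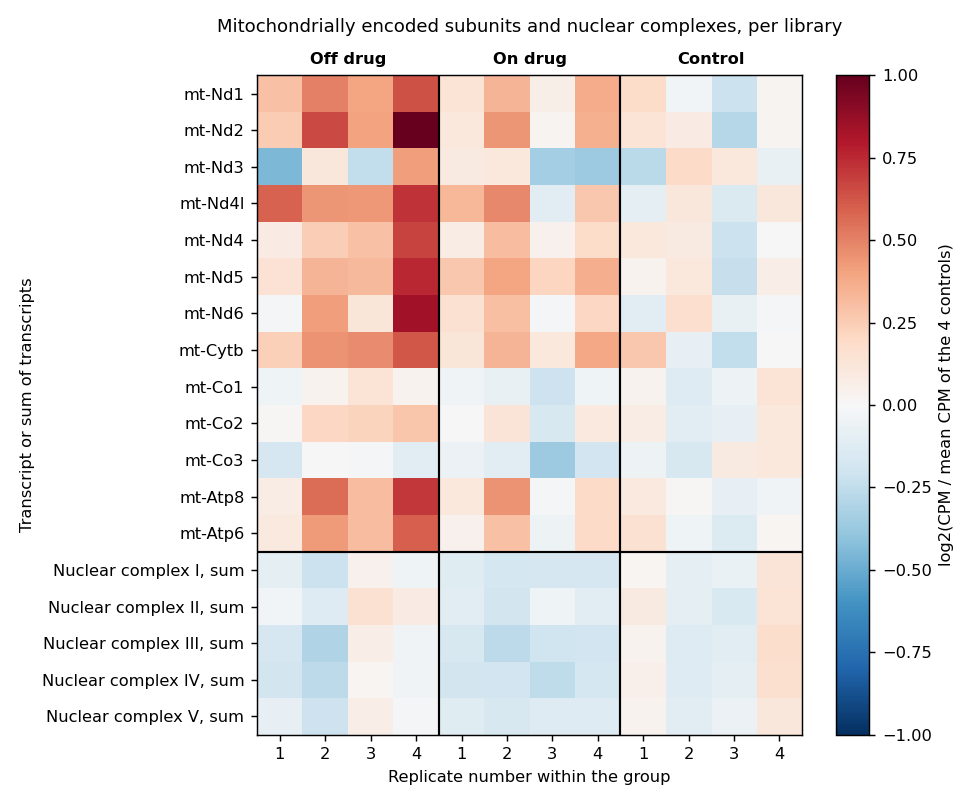
Columns are the 12 libraries and rows the 13 mitochondrial genes and the summed nuclear subunits of each complex, coloured by log2 of CPM over the mean of the 4 controls (scale from -1 to 1). The off drug columns are red for most mitochondrial genes apart from mt-Co1, mt-Co3 and mt-Nd3, while the on drug columns are blue for all 5 nuclear sums.

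Among 80 nuclear subunits tested off drug against control, 1 was called higher and 5 lower. The lower share, 6.25%, is near the 5.77% of all genes. The median was -0.08 with 60 of 80 negative. With library sizes without composition factors it was -0.02 with 43 of 80 negative. Under that scaling the medians of complexes I, II and V turned positive (0.00, 0.03 and 0.04, beside -0.06, -0.03 and -0.02 with TMM scaling), so no direction is given for these families off drug. Without control 4, off drug 1 or off drug 2 a single member was called lower, and without control 3, off drug 4 or on drug 2 there were 3.

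The gene called higher was Atp5sl, a complex I assembly factor despite its name, at 0.35 ± 0.10 (adjusted p = 0.0223). It had 15.3, 14.1, 14.9 and 14.0 CPM in off drug, 12.3, 11.8, 14.1 and 16.3 CPM in on drug and 10.5, 11.2, 12.4 and 11.5 CPM in control aortas. The off drug values lay above all controls. The call was lost without off drug 1 or 3 or control 1 or 2 (adjusted p 0.0519 to 0.0728).

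Of the 5 called lower, Ndufa4, the complex IV subunit that was once placed in complex I, had 88.0, 83.6, 95.7 and 92.7 CPM in off drug, 96.2, 91.4, 92.7 and 91.9 CPM in on drug and 106, 97.4, 108 and 119 CPM in control aortas. All off drug values lay below all controls (-0.26 ± 0.06, adjusted p = 0.0118), and the call was kept in all 12 fits that leave out a library. Ndufb2, an accessory subunit of the complex I membrane arm, gave -0.22 ± 0.07 (adjusted p = 0.0372). That call was lost without off drug 1, 2 or 4, on drug 2 or control 3 or 4 (adjusted p 0.0504 to 0.127). On drug against control, Ndufa4 gave -0.21 ± 0.06 (adjusted p = 0.0532) and Ndufb2 -0.22 ± 0.07 (adjusted p = 0.0562). Both just missed the threshold, and 8 and 4 of the 25 other settings called them. Off drug against on drug they differed by -0.05 ± 0.06 and -0.003 ± 0.067. The remaining 3, Ndufs4, Cox7b and Atp5k, were also called lower on drug.

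During treatment 9 of 80 nuclear subunits were called lower than in controls and 0 higher by edgeR, against 18 lower and 1 higher of all 93 members by DESeq2, which called 5.56% of all genes lower and 5.98% higher. The 9 are 11.3%, beside 7.07% of all genes called (2.94% lower, 4.13% higher). With library sizes without composition factors the split over all genes was 1038 higher and 388 lower, beside 1018 and 725, and with a gene length trend removed it was 904 and 1033. The log2 fold change was negative for 73 of 80, with a median of -0.16 beside 0.00 for all genes. The median stayed negative in each of the 25 other settings (-0.21 to -0.12). The sizes were small: the 9 called subunits fell by 0.20 to 0.32 on the log2 scale. With library sizes without composition factors 3 of the 9 were called (Ndufb5, Atp5k and Ndufs4), beside 1.57% of all genes. By complex, 34 of 37 nuclear subunits of complex I, 3 of 4 of complex II, 8 of 8 of complex III, 13 of 14 of complex IV and 15 of 17 of complex V were negative. CPM of the on drug and control groups did not overlap for 29 of the 93 members, beside 12.3% of all genes.

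The number of calls depended on single libraries. Without on drug replicate 3 there were 0 calls (803 over all genes, against 1743 with it), without on drug 4 there were 2, without on drug 2 and without control 4 there were 3 each, without control 3 there were 5, and without on drug 1 there were 15. With the skeletal muscle score as a covariate there were 0 (1.45% of all genes were called lower), in a design where that score did not overlap between on drug (-0.132 to 0.217) and control (-0.601 to -0.175) libraries. With the brown adipocyte score as a covariate there were 19 (3.32% of all genes were called lower). Over all genes, lower calls numbered 725 with every library. Without on drug 1, 2, 3 or 4 they numbered 960, 500, 331 and 323. Without control 3 or 4 they numbered 365 and 704.

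In complex I the called members were Ndufb3, Ndufb5 and Ndufb8 of the membrane arm and Ndufs4, an accessory subunit near the NADH-oxidising end. Ndufb3 had 43.4, 39.2, 43.7 and 41.6 CPM in off drug, 43.0, 38.2, 37.9 and 39.7 CPM in on drug and 46.5, 46.0, 48.1 and 48.6 CPM in control aortas. All 4 on drug values lay below all controls (-0.25 ± 0.06, adjusted p = 0.016). Ndufb5 had 46.9, 43.1, 54.8 and 49.2 CPM in off drug, 45.0, 42.2, 42.6 and 44.1 CPM in on drug and 52.2, 50.5, 52.3 and 62.0 CPM in control aortas. It too separated the on drug from the control group (-0.32 ± 0.08, adjusted p = 0.0166), with control replicate 4 highest. The Ndufb3 call was lost without on drug 3 (adjusted p = 0.0593), and that of Ndufb5 was lost without on drug 3 (adjusted p = 0.0521). Ndufb8, named after its values were seen, gave -0.29 ± 0.08 (adjusted p = 0.0395), lost without on drug 2, 3 or 4 or control 1 or 4 (adjusted p 0.0661 to 0.111).

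Complex II, the succinate dehydrogenase that also works in the citric acid cycle, had adjusted p between 0.147 and 0.864 off drug and 0.205 and 0.979 on drug against control. Sdha, its flavoprotein, gave log2 fold changes of 0.22 ± 0.09 off drug and 0.01 ± 0.09 on drug. Sdhb, the iron-sulfur subunit, gave -0.04 ± 0.10 off drug and -0.18 ± 0.11 on drug. The membrane anchors gave -0.02 ± 0.06 off drug and -0.11 ± 0.06 on drug (Sdhc) and -0.10 ± 0.09 off drug and -0.19 ± 0.09 on drug (Sdhd). In complex III, Uqcrh, the hinge protein beside cytochrome c1, was the single nuclear call on drug (-0.20 ± 0.06, adjusted p = 0.0464). It was named after its values were seen and was lost without off drug 1, 2 or 4, on drug 2, 3 or 4 or control 1, 3 or 4 (adjusted p 0.0523 to 0.137). Uqcr11, the most abundant nuclear subunit of that complex per length, gave -0.21 ± 0.08 (adjusted p = 0.128).

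Complex IV had 3 calls on drug. Cox7a2l, which joins complexes III and IV into supercomplexes, had 146, 144, 160.1 and 143 CPM in off drug, 140.1, 130.1, 123 and 132 CPM in on drug and 153, 142, 178 and 153 CPM in control aortas. On drug values stood below every control and below every off drug value (-0.26 ± 0.07 against control, adjusted p = 0.0299). The call was lost without on drug 2, 3 or 4 or control 3 (adjusted p 0.0694 to 0.106). Cox7a2, the widely expressed form of subunit 7a, gave -0.23 ± 0.07 (adjusted p = 0.0386), lost without on drug 2, 3 or 4 or control 3 or 4 (adjusted p 0.0501 to 0.131). Cox7b is described next.

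Ndufs4, Cox7b and Atp5k (an ATP synthase membrane subunit that holds its dimers together) were called lower both off and on drug. The 2 comparisons share their controls. Ndufs4 had 27.5, 29.1, 31.6 and 30.3 CPM in off drug, 31.8, 29.2, 27.6 and 28.8 CPM in on drug and 36.6, 32.0, 34.8 and 40.9 CPM in control aortas. All 8 values of drug-exposed aortas lay below the lowest control. Its log2 fold changes were -0.28 ± 0.08 off drug (adjusted p = 0.0198) and -0.30 ± 0.08 on drug (adjusted p = 0.0235). Cox7b had 59.3, 61.5, 75.9 and 68.4 CPM in off drug, 72.6, 69.8, 60.1 and 66.0 CPM in on drug and 84.7, 77.3, 76.7 and 90.0 CPM in control aortas. Again no drug-exposed value reached the controls, with -0.31 ± 0.08 off drug (adjusted p = 0.0166) and -0.29 ± 0.08 on drug (adjusted p = 0.0351). Atp5k had 48.7, 45.5, 56.3 and 49.9 CPM in off drug, 51.5, 51.4, 42.8 and 46.7 CPM in on drug and 56.1, 54.4, 63.0 and 65.7 CPM in control aortas. Off drug replicate 3 lay within the control range. Its log2 fold changes were -0.25 ± 0.08 off drug (adjusted p = 0.0442) and -0.31 ± 0.08 on drug (adjusted p = 0.0234).

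These calls also rested on single libraries. Off drug, the Ndufs4 call was lost without off drug 1 or 2 or control 4 (adjusted p 0.051 to 0.0765), the Cox7b call was lost without off drug 1 or 2 or control 4 (adjusted p 0.0545 to 0.0641), and the Atp5k call was lost without off drug 1, 2 or 4, on drug 2 or 4 or control 3 or 4 (adjusted p 0.0504 to 0.137). On drug, the Ndufs4 call was lost without on drug 2, 3 or 4 or control 4 (adjusted p 0.0548 to 0.0806), the Cox7b call was lost without on drug 2, 3 or 4 or control 1 or 4 (adjusted p 0.0535 to 0.118), and the Atp5k call was lost without on drug 3 or 4 or control 3 or 4 (adjusted p 0.0642 to 0.0873).

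The 250 bases before the RefSeq start of these 3 genes are printed because they are the nuclear subunits called lower in both comparisons. They lie at chr13:114388095-114388344 on the reverse strand (Ndufs4), chrX:106015450-106015699 on the forward strand (Cox7b) and chr5:108434400-108434649 on the reverse strand (Atp5k), in RefSeq's GRCm38.p6. GENCODE places the first base of Atp5k at 108434448, inside its window. Capitals mark sites of the NRF1 type (GCGCATGC or its reverse complement GCATGCGC), 2 of which overlap in Atp5k.
Ndufs4: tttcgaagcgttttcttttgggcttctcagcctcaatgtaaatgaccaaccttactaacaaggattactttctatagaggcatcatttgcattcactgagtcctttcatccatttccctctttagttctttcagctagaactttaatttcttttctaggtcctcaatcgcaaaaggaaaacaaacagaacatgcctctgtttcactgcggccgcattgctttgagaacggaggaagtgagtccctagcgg
Cox7b: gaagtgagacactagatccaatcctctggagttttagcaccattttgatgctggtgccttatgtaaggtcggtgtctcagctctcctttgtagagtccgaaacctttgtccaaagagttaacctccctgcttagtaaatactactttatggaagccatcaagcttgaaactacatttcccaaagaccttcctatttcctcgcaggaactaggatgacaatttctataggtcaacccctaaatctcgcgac
Atp5k: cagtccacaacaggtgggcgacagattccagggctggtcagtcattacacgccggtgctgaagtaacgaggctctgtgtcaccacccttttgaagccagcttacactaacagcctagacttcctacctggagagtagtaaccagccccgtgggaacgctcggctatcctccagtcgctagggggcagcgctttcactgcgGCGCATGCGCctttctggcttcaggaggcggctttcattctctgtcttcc
A set of 6 motifs, of factors known at genes of mitochondrial proteins or at promoters in general, was searched on both strands, from 250 bases before to 50 after the start, in the 69 of 82 nuclear members that matched the RefSeq table and in the 17492 protein-coding genes of the table. NRF1-type GCGCATGC was found in 14.5% of members and 3.94% of protein-coding genes, ETS-type CCGGAAG in 23.2% and 12.9%, ERR-type CAAGGTCA in 5.80% and 1.56%, and YY1-type AAGATGGC in 15.9% and 3.57%. The GC box GGGCGG was found in 40.6% and 49.2%, and TATAAA in 10.1% and 14.8%. Among all 27025 genes of the table the shares were 3.05%, 9.93%, 1.76%, 3.19%, 38.2% and 15.7% in the same order. A match describes letters, and these counts were not set against expression.

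**Figure D2:**
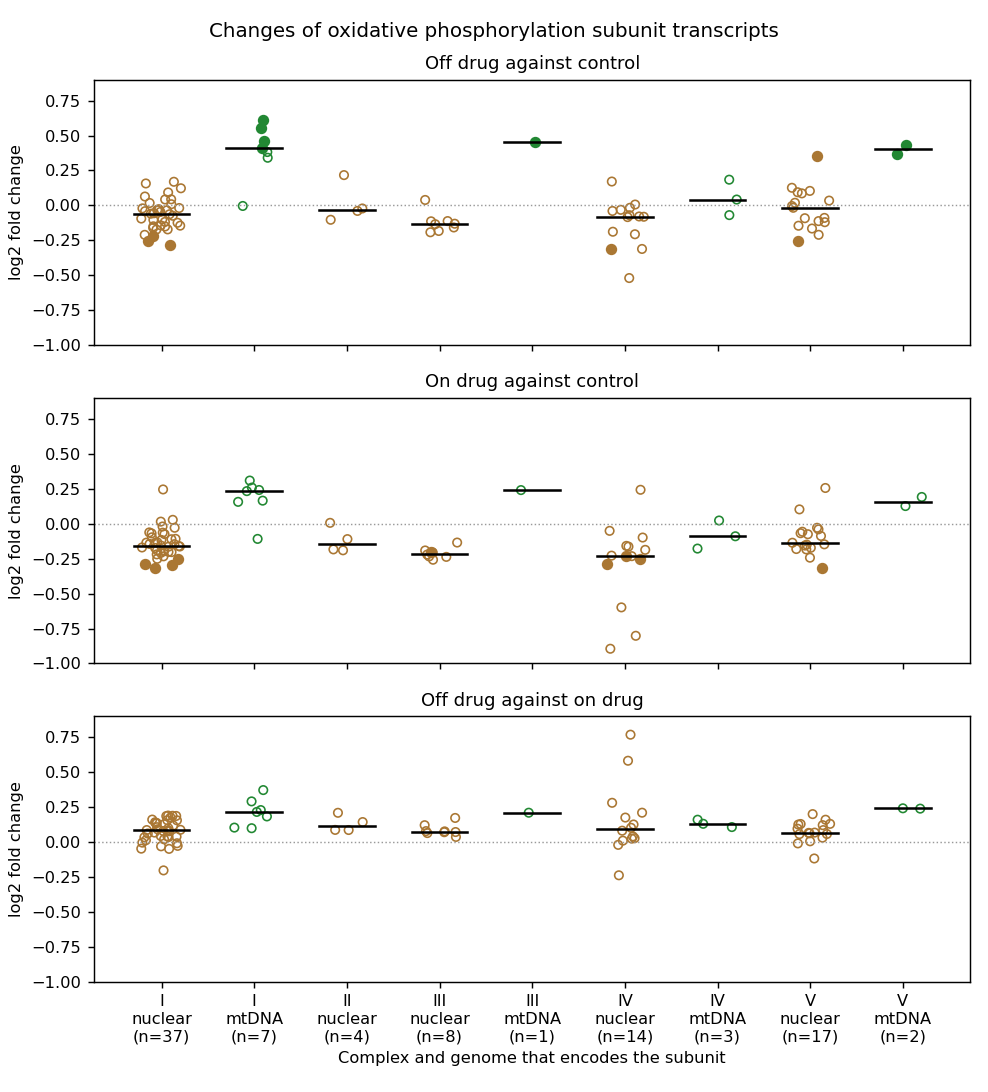
Each point is 1 subunit, placed by complex and genome, with its edgeR log2 fold change on the vertical axis; filled points passed an adjusted p of 0.05 and black bars are medians. Off drug against control the mitochondrial genes of complexes I, III and V lie above 0 apart from mt-Nd3, and on drug against control the nuclear medians of all 5 complexes lie below 0.

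On drug against control, 0 of 13 mitochondrial genes were called by edgeR, while 5 had an unadjusted p below 0.05 (4 higher, 1 lower), beside 22.6% of all genes. DESeq2 called 1 and limma-voom 0, where limma-voom called 4.31% of all genes higher and 2.91% lower. The median was 0.17 with 10 of 13 positive. The median lay between 0.10 and 0.21 in the other settings. mt-Nd5 had 77.3, 88.3, 87.6 and 118 CPM in off drug, 84.1, 91.8, 80.9 and 89.7 CPM in on drug and 71.6, 75.1, 59.6 and 73.1 CPM in control aortas. On drug values lay above all controls, as did the off drug values. On drug against control mt-Nd5 gave 0.31 ± 0.11 (adjusted p = 0.105) and mt-Co3 gave -0.18 ± 0.08 (adjusted p = 0.163).

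Off drug against on drug, 0 of 93 members were called in either direction by edgeR, beside 12.4% of all genes (5.44% higher, 6.92% lower). At an unadjusted p below 0.05 there were 16, all higher off drug, beside 25.5% of all genes. DESeq2 called 2 higher (7.19% of all genes), limma-voom 2 (6.94%) and a fit of these 2 groups alone 4 (6.69%). With the brown adipocyte score as a covariate 13 members were called higher, 11 nuclear and 2 mitochondrial, beside 5.35% of all genes. The log2 fold change was positive for 82 of 93, with medians of 0.21 for the 13 mitochondrial genes (13 of 13 positive) and 0.08 for 80 nuclear genes (69 of 80 positive), beside 0.00 for all genes. CPM of the 2 groups did not overlap for 3 members, beside 18.8% of all genes.

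Summed over subunits in CPM per kilobase, the 82 nuclear genes gave 3544, 3272, 3994 and 3761 in off drug, 3518, 3409.8, 3379 and 3439 in on drug and 3947, 3577, 3687 and 4295 in control aortas. The on drug values, within 3379 to 3518, lay below every control, 11.4% lower in the mean, and the off drug values spread across both. Off drug replicates 3 and 4 and control replicates 1 and 4 were the highest, and these are also the libraries of their groups with the most Ucp1, given with the isoforms. The sum was 10.2% lower on drug for nuclear complex I, 13.7% for complex III, 13.7% for complex IV and 9.46% for complex V, without overlap with controls, and 9.13% lower for complex II, with overlap (4.94% without control 4).

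All 13 mitochondrial genes summed 7.25% higher off drug and 3.35% lower on drug than in controls, with overlap. Without off drug 1 the off drug difference was 11%. The on drug difference turned to 0.159% higher without on drug 3, and was 1.29% lower without control 4, 5.34% lower without control 2 and 5.39% lower without on drug 2. The 10 outside complex IV summed to 4247, 5531, 4861 and 6365 in off drug, 4470.3, 5163, 3971 and 4559 in on drug and 4341, 4302, 3961 and 4141 in control aortas. Their mean was 25.4% higher off drug than in controls and 8.47% higher on drug, but off drug replicate 1 lay within the control range. This set was not among the planned sums. It leaves out the 3 complex IV genes, which had no call, so its size is no separate support for the calls. Without off drug 4 the first difference was 16.6%. The second was 3.52% without on drug 2 and 13% without on drug 3. The 3 complex IV genes summed to 13723 ± 710 off drug, 12559 ± 873 on drug and 13505 ± 975 in controls (SD, n = 4 each), overlapping in all pairs. The 2 ribosomal RNAs of mitochondrial DNA, 8.28 to 10.4% of all reads, also overlapped between groups when summed. Divided by the nuclear sum, all 13 mitochondrial genes gave 4.79, 5.97, 4.82 and 5.34 in off drug, 5.01, 5.33, 4.51 and 5.05 in on drug and 4.53, 4.63, 4.75 and 4.38 in control aortas. Every off drug ratio exceeded every control ratio (14.5% in the mean, 9.07% without off drug 2), while the on drug ratios overlapped both groups.

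Within complex III the ratio of mitochondrial to nuclear subunits was 0.896, 1.13, 0.915 and 1.1 in off drug, 0.810, 1.00, 0.846 and 1.02 in on drug and 0.804, 0.686, 0.599 and 0.596 in control aortas. Off drug and on drug values all lay above the controls, 50.5% and 36.9% higher in the mean. These differences were 44.4% without off drug 2 and 32.0% without on drug 4. The complex V ratio was 38.8% higher off drug (30.9% without off drug 2) and 23.0% higher on drug (16.2% without on drug 2). It ran from 2.93 to 4.24 off drug, 2.83 to 3.74 on drug and 2.40 to 2.80 in controls. The on drug and control ranges were thus apart by little. Reads shared by mt-Atp6 and mt-Atp8 entered this ratio for each gene. For complexes I and IV the groups overlapped (23.3% and 9.84% higher off drug, 14.5% and 7.08% on drug). The complex I difference was 13.8% off drug without off drug 4 and 9.45% on drug without on drug 2, and that of complex IV was 4.21% off drug without off drug 2 and 11% on drug without control 3. No p is given for these sums.

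**Figure D3:**
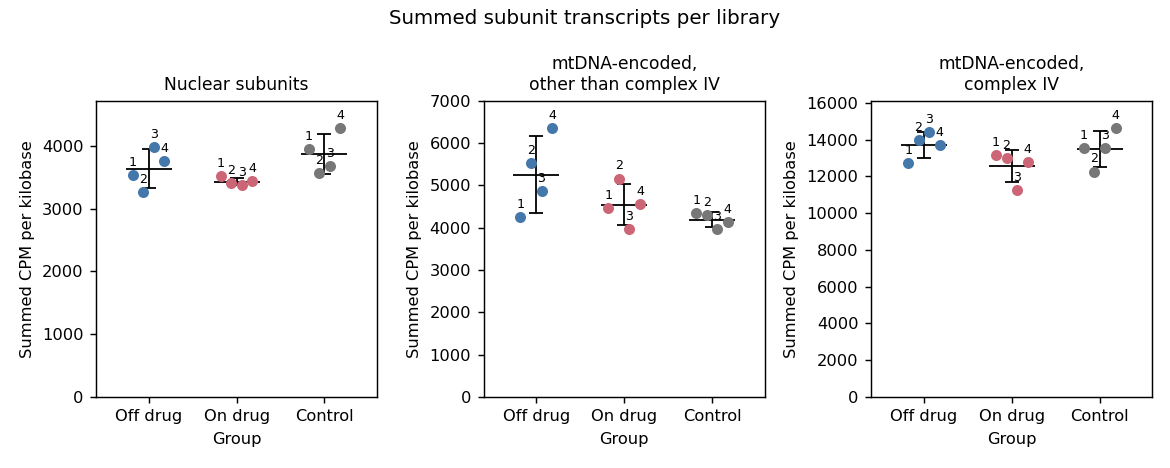
Each numbered point is 1 library, with mean and SD bars over 4, showing summed CPM per kilobase of the nuclear subunits, the 10 mitochondrial genes outside complex IV and the 3 of complex IV. The nuclear sums of the on drug libraries lie below all controls, and the middle panel has its highest values in the off drug libraries. That panel leaves out the complex IV genes, which had no call, and is no separate support for the calls.

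Several subunits exist as tissue isoforms. Cox7a1 and Cox8b are known from heart, skeletal muscle and brown fat, whereas Cox7a2 and Cox8a are widely expressed. Cox7a1 had 1.47, 1.22, 7.26 and 7.84 CPM in off drug, 2.75, 2.62, 2.41 and 4.16 CPM in on drug and 8.69, 3.10, 0.506 and 9.94 CPM in control aortas. Cox8b had 1.56, 0.987, 12.9 and 15 CPM in off drug, 6.25, 3.94, 6.22 and 8.77 CPM in on drug and 14.5, 6.55, 1.41 and 21.6 CPM in control aortas. Each varied more than 5-fold within the off drug and control groups and was not called in any comparison (adjusted p 0.613 to 0.9). Ucp1, the uncoupling protein that defines brown fat, had 5.01, 4.21, 78.7 and 80.5 CPM in off drug, 26.1, 22, 48.9 and 53.5 CPM in on drug and 83.4, 27.6, 3.07 and 111 CPM in control aortas. The same 4 libraries, off drug 3 and 4 and control 1 and 4, held the highest values of all 3 genes, and off drug 1 and 2 and control 3 the lowest. The part of brown fat in the subunit levels was not tested. With the brown adipocyte score as a covariate 10 members were called higher and 4 lower off drug, and 1 higher and 19 lower on drug, each against control. Over all genes the same fit called 6.76% higher and 6.16% lower off drug, and 4.46% higher and 3.32% lower on drug. Off drug against on drug it called 13 members higher.

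**Figure D4:**
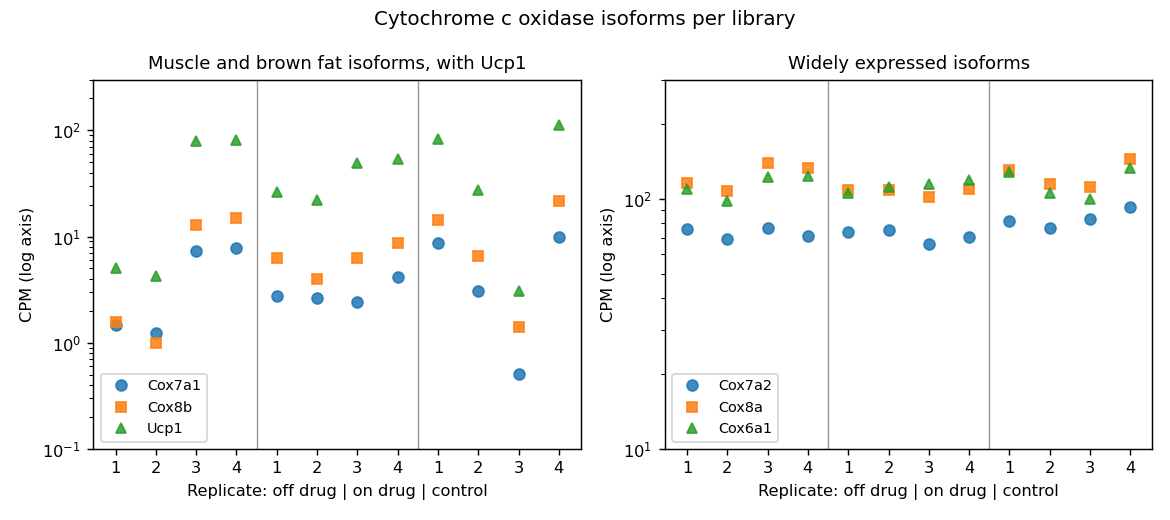
CPM on log axes for each library, in order off drug, on drug and control, of Cox7a1, Cox8b and Ucp1 (left) and of Cox7a2, Cox8a and Cox6a1 (right). The 3 genes on the left move together from library to library over more than 10-fold, while the widely expressed forms on the right stay within 66.3 to 145 CPM.

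Cox8a, which ranked first among nuclear genes per length, had 116, 107, 139 and 134 CPM in off drug, 109, 108, 102 and 110.0 CPM in on drug and 131, 114, 111 and 145 CPM in control aortas. Cox6a1 lay at 98.0 to 133 CPM, while its heart and muscle form Cox6a2 stayed at or under 0.545 CPM. Cox6b1 lay at 61.7 to 93.5 CPM and the testis form Cox6b2 at 0.702 to 1.44 CPM. Ndufa4l2, known as a hypoxia-induced paralog of Ndufa4, lay at 7.35 to 11 CPM and gave 0.25 ± 0.11 on drug (adjusted p = 0.205). The c-ring protein of the ATP synthase is encoded by 3 genes. Atp5g3 gave 0.16 ± 0.06 off drug against on drug (adjusted p = 0.0644), Atp5g2 gave 0.13 ± 0.06 (adjusted p = 0.205) and Atp5g1 gave 0.09 ± 0.06 (adjusted p = 0.43). Their copies are close in sequence, and reads that map to several places were counted at each. The median coefficient of variation within a group was 8.55% off drug, 4.83% on drug and 8.54% in controls for nuclear members, and 14.5%, 10.1% and 9.56% for mitochondrial ones in the same order.

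The subunits and carriers that the name rule leaves out had the same signs on drug. All 11 (among them Cox4i1, Cyc1 and Ndufab1) were negative on drug against control, with a median of -0.15 and no adjusted p below 0.119. Cox4i1, the main nuclear regulatory subunit of complex IV, gave -0.14 ± 0.06 on drug (adjusted p = 0.206), and Cyc1, the cytochrome c1 of complex III, gave -0.20 ± 0.15 (adjusted p = 0.493).

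Mitochondrial ribosomes make the mitochondrially encoded subunits. Of their 78 proteins, 10 were called higher and 0 lower off drug against on drug (median 0.10, 67 of 78 positive), beside 5.44% of all genes called higher. On drug against control 0 were called higher and 9 lower (median -0.11, 61 of 78 negative), beside 2.94% of all genes called lower, and off drug against control 1 was called each way (median -0.02): Mrps26 at 0.25 ± 0.08 (adjusted p = 0.0358, lost without off drug 1, 3 or 4, on drug 2 or control 2, 3 or 4 at adjusted p 0.0501 to 0.125) and Mrps33 at -0.31 ± 0.10 (adjusted p = 0.044, lost without off drug 1 or 4, on drug 2 or 3 or control 1, 3 or 4 at adjusted p 0.0528 to 0.148). Mrpl49 had 24.5, 23.4, 24.8 and 23.6 CPM in off drug, 18.8, 17.7, 17.8 and 18.5 CPM in on drug and 20.9, 22.4, 25.3 and 22.5 CPM in control aortas. On drug values lay below all others, at 0.40 ± 0.07 off drug against on drug (adjusted p = 0.00061). Mrps26 gave 0.38 ± 0.08 off drug against on drug (adjusted p = 0.0021), while Mrps22 and Mrpl42 gave -0.40 ± 0.08 (adjusted p = 0.0039) and -0.31 ± 0.06 (adjusted p = 0.00616) on drug against control. All 4 of these calls held in each of the 25 other settings.

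Of 32 genes of mitochondrial DNA maintenance and expression, 4 were called higher off drug against on drug, beside 5.44% of all genes. On drug against control 2 were called lower, beside 2.94%, and off drug against control 1 was called each way, beside 6.27% higher and 5.77% lower. The medians were 0.12, -0.04 and 0.04 in the same order. Fastkd5, needed in human cells for processing mitochondrial transcripts that are not flanked by tRNAs, had 8.93, 10.5, 11.4 and 10.7 CPM in off drug, 8.36, 8.21, 6.59 and 8.07 CPM in on drug and 10.5, 11.5, 11.5 and 10.9 CPM in control aortas. The on drug values lay below all others, with log2 fold changes of -0.50 ± 0.10 on drug against control (adjusted p = 0.00485) and 0.41 ± 0.10 off drug against on drug (adjusted p = 0.00812). Both held in all other settings. Slirp, which stabilises mitochondrial mRNA with Lrpprc, gave 0.32 ± 0.06 off drug against on drug (adjusted p = 0.00205). Mterf3, a negative regulator of mitochondrial transcription, was called lower off drug (-0.24 ± 0.07, adjusted p = 0.0322) and on drug (-0.28 ± 0.07, adjusted p = 0.0211) against control. The off drug call was lost without off drug 1, 2 or 4 or control 3 or 4 (adjusted p 0.0692 to 0.119), and the on drug call was lost without on drug 2 or 3 or control 3 (adjusted p 0.0566 to 0.0775). Gfm1, an elongation factor of mitochondrial translation, gave 0.21 ± 0.07 off drug against control (adjusted p = 0.0435), lost without off drug 2, 3 or 4, on drug 2, 3 or 4 or control 2, 3 or 4 (adjusted p 0.0544 to 0.144). Tfam, which packages mitochondrial DNA and starts its transcription, gave -0.20 ± 0.08 off drug and -0.17 ± 0.08 on drug without a call.

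Of 16 assembly factors of complex I, 2 were called higher off drug against control (6.27% of all genes), 1 lower on drug against control (2.94%) and 3 higher off drug against on drug (5.44%), with medians of 0.04, -0.11 and 0.18. Those called higher off drug against control were Ndufaf7 (0.31 ± 0.09, adjusted p = 0.0269) and Ecsit (0.27 ± 0.08, adjusted p = 0.0433). The Ndufaf7 call was lost without off drug 1, 2 or 3 or control 2, 3 or 4 (adjusted p 0.0514 to 0.0903), and the Ecsit call was lost without off drug 2, 3 or 4, on drug 2 or control 2, 3 or 4 (adjusted p 0.0508 to 0.135). Ndufaf7 was also called higher off drug against on drug (0.31 ± 0.09, adjusted p = 0.0281, lost without off drug 2 or 3 or on drug 2 or 3 at adjusted p 0.0671 to 0.106). Tmem126b, an assembly factor of the membrane arm, had 17.4, 16.8, 16.6 and 16.5 CPM in off drug, 14.6, 12.3, 13.7 and 12.9 CPM in on drug and 14.6, 17.1, 17.4 and 16.7 CPM in control aortas. It was -0.30 ± 0.08 on drug against control (adjusted p = 0.0278) and 0.33 ± 0.08 off drug against on drug (adjusted p = 0.00812). The second held in all other settings, and the first was lost without on drug 2, 3 or 4 or control 2, 3 or 4 (adjusted p 0.0522 to 0.0863). Summed CPM of the 16 were 235 to 244 off drug, 205 to 223 on drug and 226 to 234 in controls, with no overlap between any of the groups. For complexes II to V, 3 of 33 were called higher and 4 lower off drug against control, 1 lower on drug, and 2 higher off drug against on drug (medians 0.04, -0.08 and 0.12). All genes gave 6.27% higher and 5.77% lower, 2.94% lower, and 5.44% higher in these comparisons. Atpaf1, which assembles the F1 head of the ATP synthase, gave 0.39 ± 0.08 (adjusted p = 0.00439) and Surf1, needed for complex IV, 0.25 ± 0.06 (adjusted p = 0.0131) off drug against on drug, the Surf1 call being lost without off drug 1 (adjusted p = 0.0533). Cox20, a chaperone of mt-Co2, was -0.43 ± 0.12 off drug against control (adjusted p = 0.0218), lost without off drug 1 or 3 or control 2 (adjusted p 0.0587 to 0.0613). Sdhaf1, an assembly factor of complex II, was 0.41 ± 0.12 (adjusted p = 0.0291), lost without off drug 1 or 3 or control 2 or 3 (adjusted p 0.0816 to 0.11). Uqcc1, of complex III, was -0.26 ± 0.07 on drug (adjusted p = 0.037), lost without on drug 2, 3 or 4 or control 2, 3 or 4 (adjusted p 0.0587 to 0.136).

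Among 12 regulators of biogenesis, Esrrg, an oestrogen-related receptor, was called lower on drug against control (-1.48 ± 0.39, adjusted p = 0.0278) and higher off drug against on drug (1.42 ± 0.39, adjusted p = 0.0214) at 0.635, 0.637, 0.961 and 1.43 CPM in off drug, 0.542, 0.0979, 0.257 and 0.409 CPM in on drug and 1.21, 0.961, 0.628 and 1.05 CPM in control aortas. Its levels are near the filter. The first call was lost without on drug 2, 3 or 4 or control 1, 2 or 4 (adjusted p 0.0509 to 0.0846), and the second was lost without off drug 4 or on drug 3 (adjusted p 0.0615 to 0.0851). Ppargc1a, the coactivator that drives biogenesis, gave 0.23 ± 0.20 off drug and -0.28 ± 0.21 on drug without a call. Of 17 citric acid cycle genes, 15 were negative on drug against control (median -0.19, no adjusted p below 0.0533), and Suclg2, a succinyl-CoA ligase subunit, was called higher off drug against on drug (0.32 ± 0.06, adjusted p = 0.00165). Cs, citrate synthase, gave 0.01 ± 0.11 and -0.08 ± 0.11 off and on drug against control. Of 25 carriers and import genes, Vdac1, the main pore of the outer membrane, was called higher off drug against control (0.19 ± 0.05, adjusted p = 0.0187) and against on drug (0.27 ± 0.05, adjusted p = 0.00134). The first was lost without off drug 1 or 3 or control 2 (adjusted p 0.0569 to 0.0726). Mfn2, of outer membrane fusion, was called higher off drug against control (0.34 ± 0.10, adjusted p = 0.0259), lost without off drug 3 or 4 or control 2, 3 or 4 (adjusted p 0.0584 to 0.0918), and Tomm20, an import receptor, higher off drug against on drug (0.17 ± 0.05, adjusted p = 0.0417), lost without any off drug library or any on drug library (adjusted p 0.0574 to 0.126). Of 13 fatty acid oxidation genes, Cpt1a, which admits fatty acids to mitochondria, was the single call, lower off drug than on drug (-0.38 ± 0.11, adjusted p = 0.0444), lost without any off drug library, on drug 2, 3 or 4 or control 2 or 3 (adjusted p 0.0614 to 0.118). Neither mitochondrial rRNA was called. Beside the lists of this paragraph, edgeR called 6.27% of all genes higher off drug against control. On drug against control it called 4.13% higher and 2.94% lower. Off drug against on drug it called 5.44% higher and 6.92% lower. Of the 22 mitochondrial tRNA genes mt-Tl1 was called higher on drug against control (0.41 ± 0.11, adjusted p = 0.0254, lost without on drug 2, 3 or 4 or control 1, 2 or 3 at adjusted p 0.0579 to 0.101), and mt-Tm higher (0.80 ± 0.21, adjusted p = 0.0164, lost without on drug 3 at adjusted p 0.0559) and mt-Tf lower (-0.68 ± 0.20, adjusted p = 0.0311, lost without off drug 1, 2 or 3 or on drug 1 or 3 at adjusted p 0.0575 to 0.123) off drug against on drug.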

How the data were processed

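Per the file headers, the deposited counts are whole reads per gene from featureCounts 1.4.6-p3 on GENCODE M13, after a STAR index made with 2.5.3a. Read pairs were counted without strand, reads that map to several places were counted at each, and reads over overlapping genes were counted for all, which touches 42 members. GRCm38 is named in the submitters' processing notes. A deposited log2 table of the authors equals log2(count / DESeq2 size factor + 1) within 0.0001 in all 50600 genes and served as a check only. Totals ranged from 41524501 to 109423243 counts.

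Counts were fitted in R 4.3.3 with edgeR 4.0.16 (TMM scaling, at least 10 counts by filterByExpr with 15 in total, robust quasi-likelihood fit, the 3 groups of 4 in 1 model). This left 24660 genes; p-values were Benjamini-Hochberg adjusted over them, and below 0.05 a gene was called. Errors of log2 fold changes are standard errors. The fit was tested on simulated counts. Alternatives were other scalings and filters, DESeq2 1.42.0, limma-voom (limma 3.58.1), 2 groups alone, a non-robust fit, a replicate block, marker scores and gene length as covariates, and leaving out each library. Members and lists were chosen with earlier results of these data known. Named were up to 5 called members per comparison and direction by smallest adjusted p, the mitochondrial genes, isoform sets, complex II, the 2 highest members of each complex per length, up to 2 called genes per list and comparison, and Ppargc1a, Tfam, Cs, Ucp1, Cox4i1 and Cyc1. Other nuclear genes named for their level were chosen after their values were seen. Promoter sequences are RefSeq's. Groups were taken from the labels.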

Additional observations from a re-analysis of the deposited data

Results flagged for a closer look

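In 276 groups of 4 values (named genes and summed levels), 10 held a library far from the other 3 by Dixon's criterion. That is below the rate of about 1 in 20 groups that chance gives. Among the subunits, Ndufb2 stood at 40.2 CPM in on drug replicate 4, below the others of its group at 42.3 to 42.7. Ndufb5 stood at 62.0 CPM in control replicate 4, above 50.5 to 52.3. In the same library Atp5g1 stood at 50.4 CPM, above 44.5 to 44.9. The nuclear subunits of complex V summed to 706 CPM per kilobase in on drug replicate 1, above 689 to 692. Among the related genes, Uqcc1 stood at 19.9 CPM in off drug replicate 2, below 22.7 to 23.2. Surf1 and Cpt1a stood low in on drug replicate 1, at 31.0 CPM (others 32.0 to 32.2) and 88.5 CPM (others 117 to 120.5). Fastkd5 stood at 6.59 CPM in on drug replicate 3, below 8.07 to 8.36. Cox20 stood at 27.8 CPM in control replicate 2, above 20.4 to 21.7, and Tfam at 21.0 CPM in control replicate 3, above 18.4 to 18.8. Whether anything sets these libraries apart was not tested.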

How the results depend on the processing

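Off drug against control, 8 members were called higher (4 to 9 without each library in turn) and 5 lower (1 to 7). Higher calls numbered 3 without a filter and 1 with the skeletal muscle score; lower calls numbered 2 with library size alone, 9 by DESeq2, 3 with the 2 groups alone and 0 with the skeletal muscle score. On drug against control, 0 were higher (0 to 1), but 1 each by DESeq2, the 2 groups alone, the replicate block and the brown adipocyte score; 9 were lower (0 to 15), but 3 with library size alone, 15 without a filter, 18 by DESeq2, 19 with the brown adipocyte score, 0 with the skeletal muscle score and 16 with the gene length trend removed. Off drug against on drug, 0 were higher (0 to 2), but 1 with a CPM of at least 1 in 4 libraries, 2 by DESeq2, 2 by limma-voom, 4 with the 2 groups alone, 13 with the brown adipocyte score and 1 with the gene length trend removed; 0 were lower in any fit without a library. Over all genes, in the same order, off drug against control gave 1545 higher (1480 and 638) and 1422 lower (844, 1949, 1189 and 608). On drug against control gave 1018 higher (1474, 684, 925 and 1099) and 725 lower (388, 815, 1371, 818, 357 and 1033). Off drug against on drug gave 1341 higher (1441, 1773, 1712, 1607, 1320 and 1441). These fits tested 17255 to 48639 genes. The causes were not tested. The replicate block gave 9 higher and 4 lower off drug, 1 and 6 on drug, and 0 and 0 off against on drug. Same-numbered libraries did not deviate together (r -0.0797 to 0.0672, 0 of 12 pairs over 0.1, 2 of 12 libraries correlating best with their own number). Pairs with other numbers gave r of -0.106 to 0.113. No pairing by number was seen, but this check could miss a weak one. The nuclear sum differed by -9.06 to -2.53% off drug and -13.6 to -8.05% on drug against control without each library, and by 2.6 to 9.60% off against on drug. The mitochondrial sum differed by 5.03 to 11% off drug, -5.39 to 0.159% on drug and 7.08 to 14.8% off against on drug, and the ratio by 9.07 to 17.7%, 6.19 to 12.2% and 0.246 to 8.16% in the same order. Of 55 called single-gene results, 303 of 1373 values in 25 other settings ended a call and 0 changed sign. With 4 libraries a group, nuclear differences of 0.20 to 0.32 on the log2 scale passed or missed the threshold with single libraries, although each library held at least 41524501 counts.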
